A study of Mus musculus with 16 samples.

Results

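Genes of cholesterol synthesis under SREBP2 control were read in mouse liver: Fdps, Cyp51, Nsdhl, Stard4, Hmgcs1, Insig1 and the gene of SREBP2 itself, Srebf2. They were chosen by name, without use of measured values, although earlier results of these data were known. They are 7 of the 7413 genes that could be named on the array, and 11 probes read them. All 7 passed the filter on dim probes through 10 of the 11 probes. The livers came from 16 male mice aged 23 weeks, of which 7 were Lactb transgenic and 9 were FVB wildtype. Lactb is the gene of a mitochondrial protein with a beta-lactamase fold. Both genotypes ate chow with 4% fat until week 11 and chow with 6% fat from then on. The promoter that drives the transgene and the number of founder lines are not given in the sources used here, and no probe could be named Lactb, so the transgene product was not checked.

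SREBP2 is a transcription factor held in the endoplasmic reticulum as a precursor by SCAP and the INSIG proteins when membranes are rich in sterol. When sterol falls, the precursor is carried to the Golgi and cut, and the freed part enters the nucleus and binds sterol regulatory elements in front of the genes of the mevalonate and sterol pathway. The liver is a main site of this synthesis, and both INSIG1 and SREBP2 are themselves products of target genes, which gives the pathway feedback. Hmgcs1 makes HMG-CoA, an early intermediate of the pathway. Fdps makes farnesyl diphosphate, the last intermediate before the branch to sterols. Cyp51 and Nsdhl remove methyl groups from lanosterol and its products, and Stard4 is a carrier that moves cholesterol between membranes.

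The sequences before the start sites are shown because SREBP2 binds in front of its target genes. Whether SREBP2 had a part in the levels of these genes across animals was not tested. RefSeq windows on GRCm38.p6 matched 5 of the 7 genes. Each line gives the 250 bases before the start site, 5′ to 3′ on the strand of the gene. Capitals mark 3 motifs searched on both strands, none of which overlapped another: TCACNCCA (a form of the sterol regulatory element), CCAAT (the box bound by NF-Y) and GGGCGG (the box bound by Sp1). NF-Y and Sp1 are known partners of SREBPs.
Cyp51 (chr5:4104698-4104947, minus strand): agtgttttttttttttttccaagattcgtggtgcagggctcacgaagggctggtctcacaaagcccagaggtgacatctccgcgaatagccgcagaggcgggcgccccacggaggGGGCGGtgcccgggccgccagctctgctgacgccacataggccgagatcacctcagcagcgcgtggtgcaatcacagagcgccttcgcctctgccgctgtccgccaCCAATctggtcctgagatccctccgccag
Nsdhl (chrX:72918271-72918520, plus strand): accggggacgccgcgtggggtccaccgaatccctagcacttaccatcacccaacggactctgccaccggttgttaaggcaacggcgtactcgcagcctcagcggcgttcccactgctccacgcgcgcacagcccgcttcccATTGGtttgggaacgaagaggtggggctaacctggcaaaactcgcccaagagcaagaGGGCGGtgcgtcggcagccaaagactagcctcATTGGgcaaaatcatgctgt
Hmgcs1 (chr13:119690101-119690350, plus strand): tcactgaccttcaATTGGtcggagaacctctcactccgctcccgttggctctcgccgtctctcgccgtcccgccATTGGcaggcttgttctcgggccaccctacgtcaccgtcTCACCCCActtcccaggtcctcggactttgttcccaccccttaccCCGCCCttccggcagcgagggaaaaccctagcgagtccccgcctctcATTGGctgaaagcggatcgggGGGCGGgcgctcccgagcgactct
Insig1 (chr5:28071162-28071411, plus strand): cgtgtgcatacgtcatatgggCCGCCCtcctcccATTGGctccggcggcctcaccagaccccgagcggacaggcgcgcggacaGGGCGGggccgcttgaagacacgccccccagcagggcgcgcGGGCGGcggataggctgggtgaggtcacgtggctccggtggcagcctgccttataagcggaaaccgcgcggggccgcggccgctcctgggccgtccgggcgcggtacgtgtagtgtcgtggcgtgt
Srebf2 (chr15:82147019-82147268, plus strand): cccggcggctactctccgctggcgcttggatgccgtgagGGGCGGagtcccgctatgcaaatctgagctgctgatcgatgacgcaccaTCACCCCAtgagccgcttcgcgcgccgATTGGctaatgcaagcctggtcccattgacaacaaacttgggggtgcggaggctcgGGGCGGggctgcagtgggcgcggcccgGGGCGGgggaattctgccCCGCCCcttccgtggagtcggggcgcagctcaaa

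TCACNCCA occurred in the Hmgcs1 window, 137 bases before the start site, and in the Srebf2 window, 162 bases before it. Both matches read TCACCCCA on the strand of the gene. Of 32851 RefSeq windows of the same length, 3.67% held this motif. CCAAT and GGGCGG each occurred in 5 of the 5 windows, against 33.8% and 32.7% of all windows. A match describes letters and is not evidence that a factor binds there.

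The unit throughout is the intensity deposited for each animal's array, in arbitrary units with background subtracted, unless log2 is named. Differences and correlations are on a log2 scale after a further background model and quantile normalization. Each array held 9907 to 11564 probes above its own noise limit, which lay between 17.1 and 32.5 intensity units, and 11317 probes were detected on at least 6 arrays and tested. The hepatocyte markers Apoa1 (20433.6 to 36045.0) and Trf (19693.0 to 27547.6) were bright on every array, as the label of the tissue has it. The arrays did not form 1 cloud: 6 animals (transgenic 1 and 2 and wildtype 1, 2, 8 and 9) stood far from the other 10 on the first principal component of the probes outside the pathway lists, which carried 56.9% of their variance. Their coordinates were -30.8 to -25.6 in the 6 animals and -2.77 to 25.4 in the other 10. Since the labels do not explain this division, it is used below to describe values and not as a group of the study. Nothing in the labels says whether animals shared a litter or a cage, so p-values measure the spread between arrays taken as separate animals.

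None of the 7 genes differed between Lactb transgenic and wildtype liver by the test across all probes. Limma called 0 of 11317 probes (0.0% at an adjusted p under 0.05), 332 probes had an unadjusted p under 0.05, and the lowest adjusted p was 0.932. Mean log2 levels were higher in transgenic liver for 2 genes and lower for 5, with a median difference of -0.20 over the 7 against -0.00406 over all tested probes. Of all tested probes, 5512 were higher and 5805 lower in transgenic liver. The 7 differences are not separate readings, since most of these genes moved together across animals, as given below. A difference that misses the threshold does not show equal levels.

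Hmgcs1, the cytosolic HMG-CoA synthase at the entry of the pathway, had intensities of 2466.3 to 4364.6 with a median of 2768.5 in 7 transgenic livers, against 2275.5 to 7322.1 with a median of 3092.4 in 9 wildtype livers. Wildtype 1 (7322.1) and wildtype 8 (5951.0) lay above every transgenic animal, and the other wildtype animals lay within or just below the transgenic range. The log2 difference was -0.17 (SE 0.20, 95% interval -0.60 to 0.25, limma adjusted p = 0.932). Of the 6 genes other than Srebf2, this one had the narrowest interval. The difference was -0.0434 without wildtype 1 and -0.0816 without wildtype 8, and it was farthest from 0 without transgenic 1 (-0.25).

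Fdps, the farnesyl diphosphate synthase, had intensities of 3614.9, 3189.1, 588.8, 884.5, 514.1, 461.1 and 587.5 in transgenic animals 1 to 7. In wildtype animals 1 to 9 it had 3480.4, 1403.1, 456.2, 483.3, 535.0, 514.8, 417.8, 2891.3 and 1874.1. Transgenic 1 and 2 and wildtype 1, 2, 8 and 9 were high, and the genotypes overlapped over almost their whole ranges. Mean log2 levels were 9.97 ± 1.23 for transgenic animals (SD, n = 7) and 9.96 ± 1.20 for wildtype animals (SD, n = 9), a difference of 0.01 (SE 0.55, 95% interval -1.14 to 1.17, limma adjusted p = 0.998). Its sign rested on single animals. It was -0.29 without transgenic 1 and -0.26 without transgenic 2, and it lay between -0.13 and -0.09 without wildtype 3, 4, 5, 6 or 7.

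Cyp51, the lanosterol 14-alpha-demethylase, had intensities of 79.9 to 669.3 with a median of 123.2 in transgenic liver, against 77.7 to 814.2 with a median of 123.2 in wildtype liver. The 2 medians were equal, and no animal lay between 132.3 and 404.9, with 2 transgenic and 4 wildtype animals at or above the upper value. The log2 difference was -0.28 (SE 0.51, 95% interval -1.34 to 0.79, limma adjusted p = 0.942). It was nearest 0 without wildtype 1 (-0.0662) and farthest from 0 without transgenic 1 (-0.56).

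Nsdhl, the sterol dehydrogenase that takes part in removing the C4 methyl groups, was read by 3 probes. Its brightest probe gave intensities of 379.0 to 2582.4 with a median of 428.2 in transgenic liver, against 353.2 to 3101.7 with a median of 488.6 in wildtype liver. The genotypes overlapped, and the log2 difference was -0.20 (SE 0.53, 95% interval -1.31 to 0.91, limma adjusted p = 0.964). This difference was 0.04 without wildtype 1, the animal with the highest level. The other Nsdhl probes gave differences of -0.18 (SE 0.49) and -0.13 (SE 0.43). These 2 probes were above noise on 8 and 9 arrays, so they passed the filter mainly through the high animals.

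Stard4, the cholesterol carrier, had the largest genotype difference of the 7 genes. Its intensities were 2044.2, 2674.6, 477.9, 856.2, 567.3, 528.2 and 469.5 in transgenic animals 1 to 7, and 3267.4, 2410.3, 1017.7, 422.3, 629.6, 647.9, 797.2, 3258.6 and 2326.0 in wildtype animals 1 to 9. The medians were 567.3 in transgenic and 1017.7 in wildtype liver, and the ranges overlapped. The log2 difference was -0.56 (SE 0.49, 95% interval -1.59 to 0.48, limma adjusted p = 0.932), and leaving out 1 animal at a time gave -0.82 to -0.39.

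Insig1, which retains SCAP and SREBP2 in the endoplasmic reticulum, was read by 3 probes, of which one was above noise on 0 arrays and was not tested. The brightest probe gave intensities of 40.9 to 321.3 with a median of 104.2 in transgenic liver, against 37.0 to 421.9 with a median of 119.1 in wildtype liver. Both the highest and the lowest animal were wildtype. The log2 difference was -0.30 (SE 0.40, 95% interval -1.14 to 0.54, limma adjusted p = 0.932), and the other tested probe gave -0.23 (SE 0.39). Leaving out 1 animal gave values from -0.49 (without transgenic 2) to -0.12 (without transgenic 3).

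Srebf2 had intensities of 37.9 to 67.4 with a median of 45.8 in transgenic liver, against 18.7 to 67.3 with a median of 47.7 in wildtype liver. The probe was dim, close to the noise limits given above, and was detected on 15 of 16 arrays. The log2 difference was 0.07 (SE 0.12, 95% interval -0.18 to 0.33, limma adjusted p = 0.935), which is compressed by the offset added before the log. It was 0.00935 without wildtype 3. Wildtype 3 was the lowest animal and the one array on which the probe was not above noise.

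**Figure D1:**
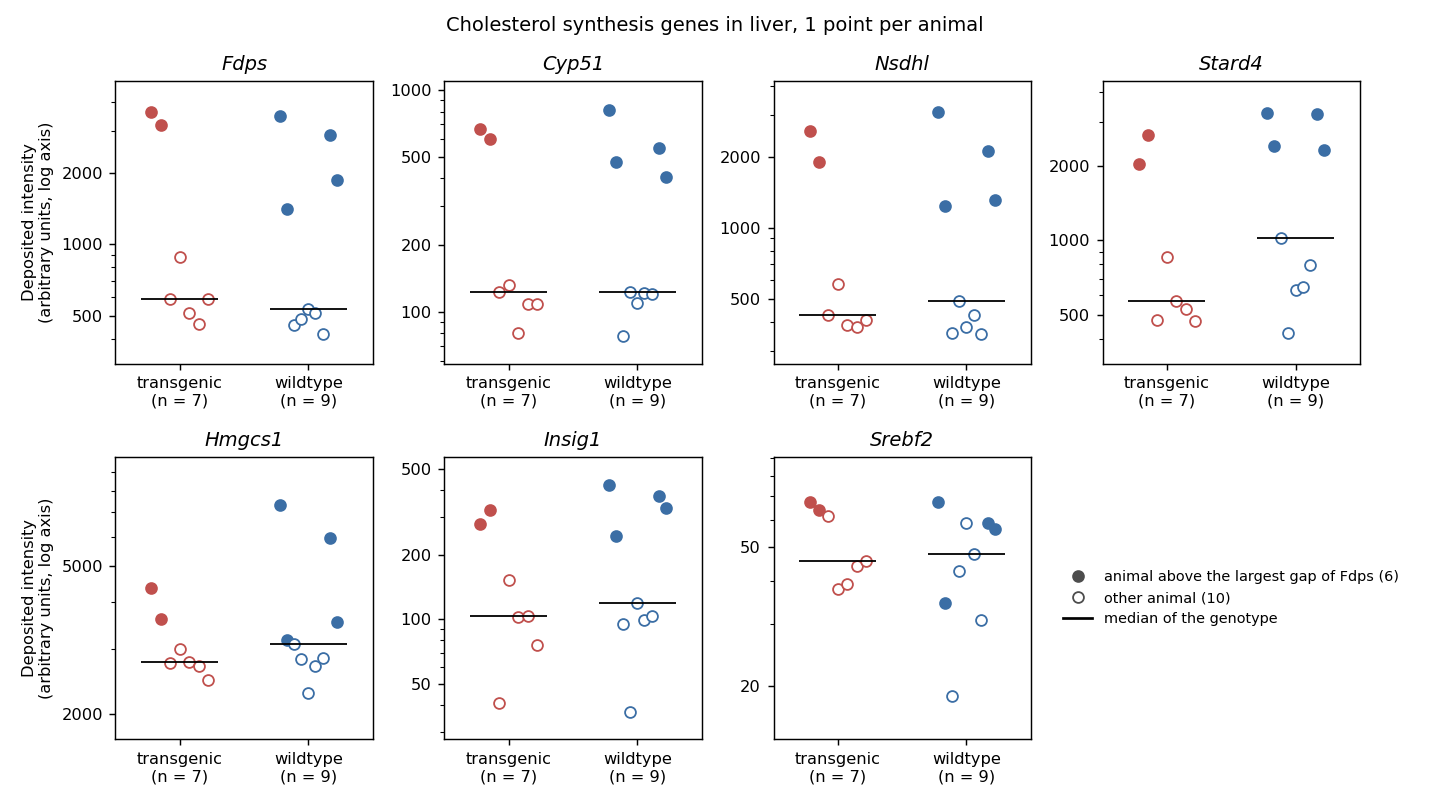
Deposited intensity of each of the 7 genes (vertical log axes, arbitrary units, brightest probe of a gene) in 7 transgenic and 9 wildtype animals, with 1 point per animal and a line at the median of each genotype. Filled points are the same 6 animals in every panel: they lie above the open points for 6 genes, by a narrow margin for Hmgcs1 (3158.2 against 3092.4), and mix with them for Srebf2.

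**Figure D2:**
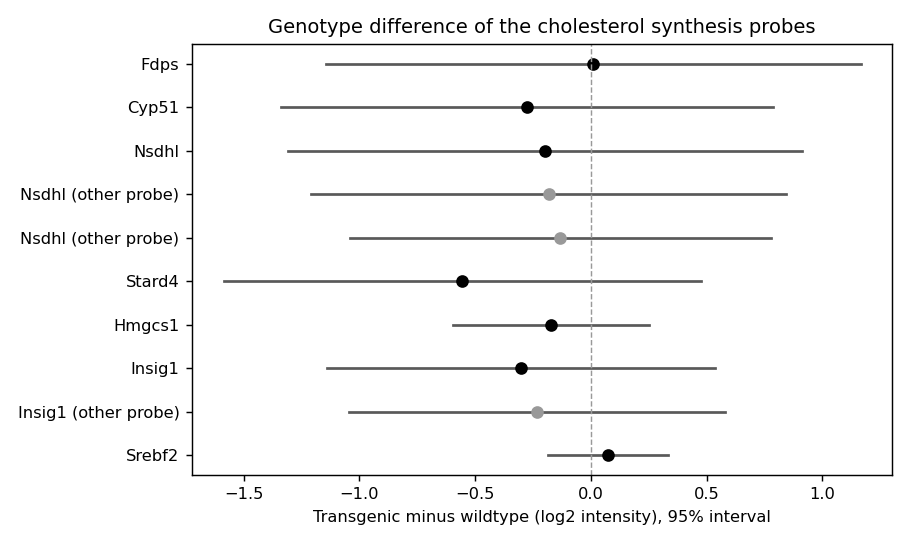
Log2 difference, transgenic minus wildtype, with its 95% interval from limma, for the 10 tested probes of the 7 genes (black points mark the brightest probe of a gene). Every interval crosses 0, and those of Hmgcs1 and Srebf2 are the narrowest.

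Some animals of both genotypes carry the same number in their titles, whose meaning the labels do not give. Within number 9 (transgenic 2, wildtype 3) the log2 levels of 7 of 7 genes were higher in the transgenic animal, by 0.18 for Hmgcs1 to 2.61 for Fdps. Within number 12 (transgenic 3, 4 and 5, wildtype 8) 7 of 7 were lower in the transgenic animals, with differences of -0.36 for Srebf2 to -2.33 for Stard4. Within number 13 (transgenic 6, wildtype 9) 7 of 7 were lower in the transgenic animal, with differences of -0.36 for Srebf2 to -2.18 for Stard4. The genes thus moved as a block in opposite directions within different numbers, and each such difference sets 1 of the 6 high animals against animals of the other 10. Animals of the same genotype that shared a number fell in the same set. Wildtype 1 and 2 (number 5) were both among the 6. Wildtype 4 and 5 (number 10), wildtype 6 and 7 (number 11) and transgenic 3, 4 and 5 (number 12) were among the other 10. Whether the number is tied to the division was not tested, and no test was run within numbers.

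Across animals the genes had few intermediate levels. Ordered by log2 level, Fdps had its largest gap (0.79) between wildtype 2 and transgenic 4, which set 6 animals above the other 10. This is the division that the other probes showed. The same 6 animals lay above the largest gap of Cyp51 (1.52), Nsdhl (1.22), Stard4 (0.99) and Insig1 (0.79, and in its other tested probe). They also lay above it in the other 2 Nsdhl probes. Those probes, above noise on 8 and 9 arrays, passed the filter mainly through the high animals and add no separate support. The largest gap of Hmgcs1 (0.42) set wildtype 1 and wildtype 8 above the rest, and that of Srebf2 (0.32) set wildtype 3 below the rest. The 6 animals comprised 2 of 7 transgenic and 4 of 9 wildtype animals. The SD of log2 level over the 16 animals exceeded that of 98.5% to 99.4% of tested probes for Fdps, Cyp51, Nsdhl, Stard4 and Insig1, of 91.9% for Hmgcs1 and of 70.3% for Srebf2.

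Cyp51 ranged from 404.9 to 814.2 in the 6 animals and from 77.7 to 132.3 in the other 10, so that the lowest of the 6 was 3.06 times the highest of the 10. That ratio was 2.15 for Nsdhl (1231.6 to 3101.7 against 353.2 to 574.2), 2.01 for Stard4 (2044.2 to 3267.4 against 422.3 to 1017.7), 1.59 for Fdps (1403.1 to 3614.9 against 417.8 to 884.5) and 1.59 for Insig1 (243.1 to 421.9 against 37.0 to 152.6). For Hmgcs1 it was 1.02 (3158.2 to 7322.1 against 2275.5 to 3092.4), with neighbouring animals that differed by less than the spread within either set. Srebf2 overlapped, at 34.5 to 67.4 in the 6 animals and 18.7 to 61.3 in the other 10. Wildtype 1 was the highest animal for Cyp51, Nsdhl, Stard4, Hmgcs1 and Insig1, and transgenic 1 for Fdps and Srebf2. From the highest to the lowest animal the intensities spanned 11.4 times for Insig1, 10.5 for Cyp51, 8.78 for Nsdhl, 8.65 for Fdps, 7.74 for Stard4 and 3.22 for Hmgcs1.

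A probe is called wholly higher here where, in normalized log2 level, the lowest of the 6 animals lay above the highest of the other 10, and wholly lower in the reverse case. Besides Fdps, which fixed the division, 5 of the remaining 6 genes lay wholly higher in the 6 animals. Of all 11317 tested probes, 4.61% lay wholly higher and 5.96% wholly lower (522 and 675 probes). No p-value goes with these counts, because the division was read from the same arrays. With arrays scaled to a common median in place of quantile normalization, Hmgcs1 was no longer separated and the shares were 1.22% higher and 6.55% lower. In these RNA samples of whole tissue, fewer cells of a type and less RNA per cell cannot be told apart.

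Other genes of the pathway were thinly covered: of 28 listed, 12 had a named probe and 7 were tested. Between genotypes 0 of the 7 passed, 2 had a higher and 5 a lower mean in transgenic liver, and the median log2 difference was -0.06. That median had no stable sign: it ran from -0.20 without transgenic 2 to 0.0282 without wildtype 1, and was also above 0 without wildtype 8, transgenic 3 or transgenic 6. Among those of smallest p were Erg28, an endoplasmic reticulum protein known from yeast as a scaffold of the C4 demethylation enzymes (-0.15, SE 0.23), and Tmem97, a sterol-responsive membrane protein that binds NPC1 (-0.08, SE 0.24). By animal, 4 of the 7 lay wholly higher in the 6 animals. Lss, the lanosterol synthase one step ahead of Cyp51, had 178.6 to 529.3 in the 6 animals and 75.9 to 163.8 in the other 10. Tmem97 had 1321.6 to 1975.0 in the 6 animals and 782.8 to 993.7 in the other 10, Erg28 had 1364.7 to 2153.2 and 801.6 to 1109.5 in the same order of sets, and Acat2, the acetoacetyl-CoA thiolase, overlapped in deposited intensity (634.0 to 1082.1 in the 6, 475.1 to 668.1 in the 10) and separated after normalization. Mbtps2, a protease that cuts SREBP2, overlapped, with 31.9 to 64.5 in the 6 and 16.9 to 50.4 in the 10. Under scaling to a common median 2 of the 7, Tmem97 and Erg28, were separated. Probes named Npc1 and Lpin1 were above noise on 0 arrays.

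Fatty acid synthesis genes, which respond mainly to the related factor SREBP1c, did not share the pattern as a list. Of 17 listed, 8 were tested: Acss2 and Fads2 lay wholly higher in the 6 animals, Scd2 lay wholly lower, and Fasn, Acly, Acaca, Elovl6 and Gpam overlapped. Acaca overlapped in normalized level, whereas its deposited intensities did not (1188.4 to 1924.7 in the 6, 1944.9 to 3034.8 in the 10). Fasn, the fatty acid synthase, had 904.7 to 3028.2 in the 6 animals and 865.2 to 2453.7 in the other 10. Fads2, the delta-6 desaturase, had 857.0 to 1425.9 in the 6 and 392.7 to 631.1 in the 10. Scd2, a stearoyl-CoA desaturase, had 97.0 to 164.1 in the 6 and 367.1 to 1016.6 in the 10. Acss2, the cytosolic acetyl-CoA synthetase, was separated with quantile normalization (937.9 to 2715.9 in the 6, 588.2 to 979.4 in the 10) and not with scaling to a common median or with no further normalization. Between genotypes 0 of 8 passed, with 6 higher and 2 lower means in transgenic liver and a median log2 difference of 0.12. The 3 of smallest p were Acaca, the acetyl-CoA carboxylase (0.33, SE 0.15, limma adjusted p = 0.932), Scd2 (0.66, SE 0.47) and Gpam, a glycerol-3-phosphate acyltransferase (-0.23, SE 0.17). The Srebf1 probe was above noise on 0 arrays.

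Genes of sterol export, esterification and bile acids were tested for 3 of 17. Abcg1, an exporter of cholesterol and a target of the liver X receptors, had 117.3 to 198.2 in the 6 animals and 668.9 to 1274.6 in the other 10. Soat2, which esterifies cholesterol in hepatocytes, had 788.6 to 1058.2 in the 6 and 1302.2 to 2120.7 in the 10. Both lay wholly on the side opposite to the synthesis genes. Nr1h3, which encodes the liver X receptor alpha, overlapped. Between genotypes the log2 differences were 0.19 (SE 0.19) for Soat2, 0.49 (SE 0.50) for Abcg1 and -0.03 (SE 0.08) for Nr1h3, and 0 of 3 passed. In the branch from farnesyl diphosphate to products other than sterols, 2 of 9 genes had a named probe and 0 were tested.

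**Figure D3:**
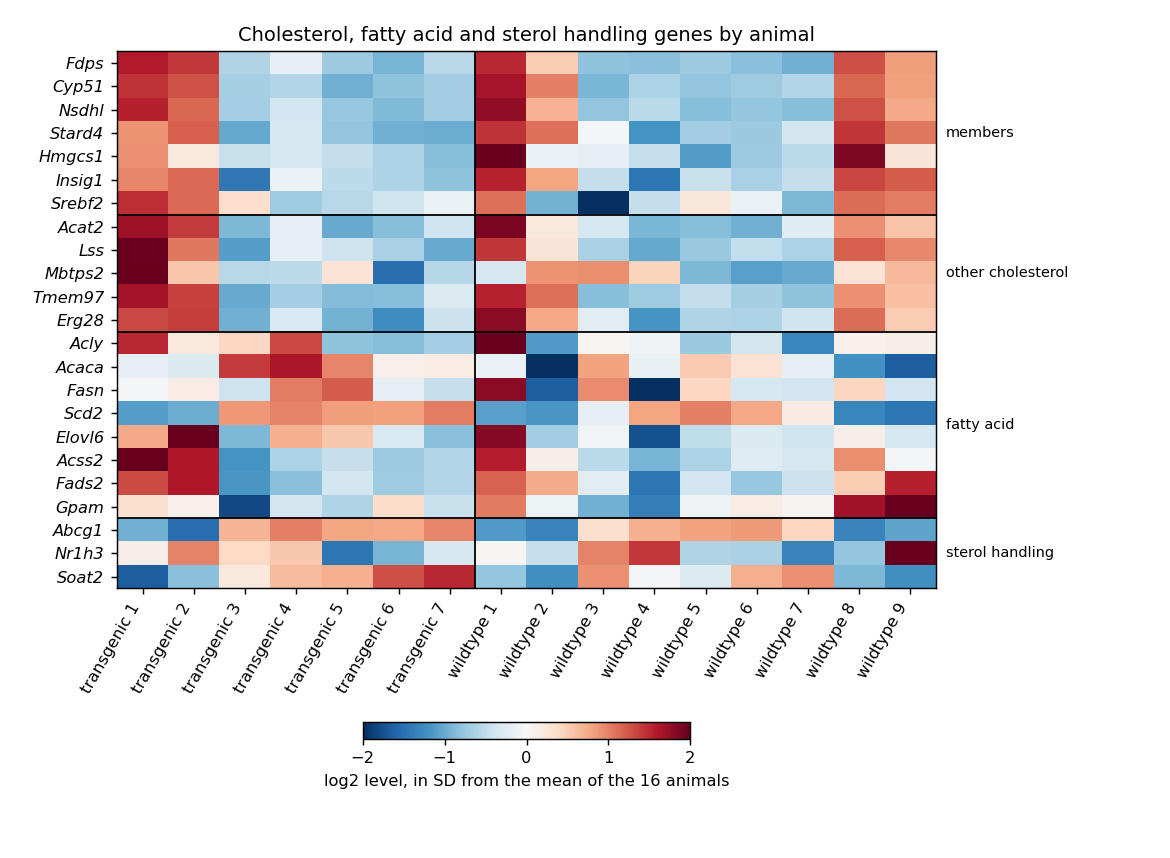
Log2 level of the 7 genes (top block, marked members) and of 16 tested genes of the other pathway lists in each animal, in SD from the gene's mean over 16 animals, with colours limited at 2 SD on either side and transgenic animals left of the line. The columns of transgenic 1 and 2 and wildtype 1, 2, 8 and 9 are mostly red in the upper 2 blocks, and blue for Scd2, Abcg1 and Soat2.

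Markers of other cells differed between the same 6 animals and the other 10. Of 8 genes known from lipid-associated macrophages 5 were tested, and Gpnmb, Cd63, Mmp12 and Lpl lay wholly lower in the 6. Of all tested probes, 5.96% lay wholly lower. Their summed intensity with Spp1 was 478.5 to 767.3 in the 6 animals and 3268.4 to 11887.9 in the other 10. By genotype that sum was 580.8 to 11887.9 in transgenic and 478.5 to 9994.7 in wildtype liver. Gpnmb (-24.6 to -0.9) and Mmp12 (-11.3 to 9.5) were at background in each of the 6 animals, and had 567.6 to 4441.3 and 129.0 to 770.2 in the other 10. Of 12 general macrophage genes 5 were tested and Cd68, Lyz2 and C1qa lay wholly lower, with sums of 994.1 to 1678.1 in the 6 and 1986.7 to 6992.4 in the 10. Gpnmb, Mmp12 and Cd68 were above noise only on the arrays of the other 10. They passed the filter through those animals alone, so their separation is no independent support. Of 8 hepatocyte genes 4 were tested, and the sums were 77893.5 to 88387.7 in the 6 and 52984.1 to 71547.5 in the 10. Serpina1a lay wholly higher in the 6, whereas Apoa1, Trf and Ass1 overlapped. The summed cholangiocyte genes (2 tested of 6) had 225.3 to 461.0 in the 6 and 469.6 to 2741.3 in the 10. Most of that sum was Spp1, also among the lipid-associated macrophage genes, and the other, Cldn4, overlapped (35.5 to 76.4 in the 6, 40.6 to 139.1 in the 10). Slc1a2, the 1 pericentral hepatocyte gene tested, had 123.1 to 200.1 in the 6 and -7.6 to 48.2 in the 10. The sums of the stellate and fibroblast, endothelial, T cell, B cell, neutrophil, red cell, adipocyte and periportal lists overlapped. Single genes in 2 of these lists did not. Dcn, 1 of 6 tested stellate and fibroblast genes, lay wholly lower (3296.3 to 4036.7 in the 6, 4253.2 to 6054.0 in the 10). Ighm, 1 of 2 tested B cell genes, lay wholly higher (147.0 to 271.1 in the 6, 84.7 to 127.8 in the 10). Nearly all of the adipocyte sum was Car3 (16697.1 to 21935.8 in the 6, 9554.2 to 17447.0 in the 10). The other adipocyte gene tested, Fabp4, was dim (24.1 to 49.0 in the 6, 13.3 to 57.9 in the 10). Arrays of the 6 animals had 9907 to 10252 probes above noise, against 9956 to 11564 for the other 10. The part of cell content and of array quality in the levels of the cholesterol genes was not tested.

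Within each set of animals the relation to the first principal component was read separately, since the pooled points fall into 2 clusters. In the 6 animals, whose coordinates spanned only -30.8 to -25.6, no gene passed. There r ran from -0.60 for Cyp51 to 0.26 for Srebf2 (exact permutation tests, smallest adjusted p = 0.739 over 14 tests). A miss over 6 animals does not show that a relation is absent. In the other 10, Stard4 had r = -0.84 (Spearman rho -0.75, permutation p = 0.00192, adjusted p = 0.0134) and Srebf2 had r = 0.89 (rho 0.69, permutation p = 0.00165, adjusted p = 0.0134). Neither passed in ranks (adjusted p = 0.244 and 0.245 by permutation). Both rested on wildtype 3 and wildtype 7, whose coordinates of -2.77 and 6.70 lay apart from the 16.4 to 25.4 of the other 8. Without those 2 animals r was -0.55 for Stard4 and 0.47 for Srebf2. Wildtype 3 had the highest Stard4 level of the 10 (1017.7) and the lowest Srebf2 level (18.7, not above noise), whereas its Fdps (456.2) and Cyp51 (77.7) were among the lowest.

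**Figure D4:**
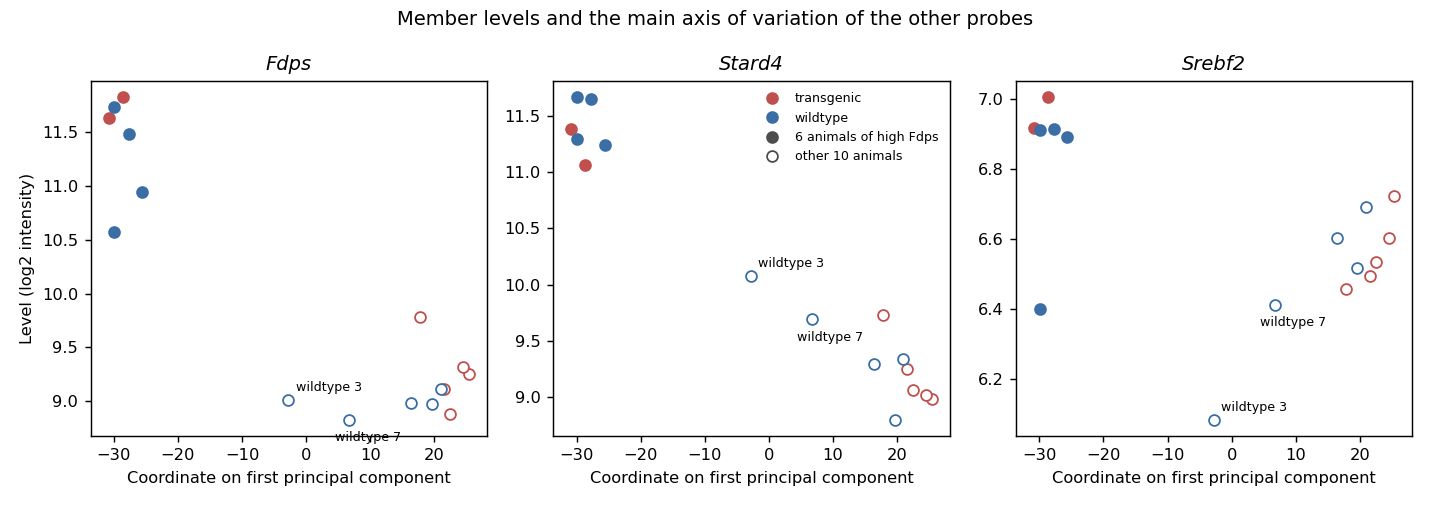
Log2 level of Fdps, Stard4 and Srebf2 (vertical axes) against the coordinate of each animal on the first principal component of the probes outside the pathway lists (horizontal axis), with transgenic animals in red, wildtype animals in blue, and the 6 animals of high Fdps filled. Points form 2 clusters for Fdps and Stard4, and wildtype 3 and 7 lie between the clusters on the horizontal axis.

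Within the 6 animals the Pearson correlations between the genes were positive, but none passed after adjustment. All 21 pairs had a positive Pearson r, with a median of 0.616 and a range of 0.0822 to 0.939, whereas the median over pairs of named genes was 9.83e-05. The closest pairs were Cyp51 with Nsdhl (r = 0.939, rho 0.886, exact permutation p = 0.00972), Fdps with Nsdhl (r = 0.903, rho 0.886, exact permutation p = 0.0153) and Fdps with Srebf2 (r = 0.841, rho 0.829, exact permutation p = 0.00556). In ranks Stard4 with Srebf2 had a rho of -0.143, and Fdps with Stard4 and Insig1 with Srebf2 each had 0.0286. Over 42 tests in both sets 0 pairs passed after adjustment (smallest adjusted p = 0.128 by permutation). Without the 2 animals farthest from the median of the first gene 9 of the 21 pairs had a negative r, over the 4 animals left. Leaving out 1 animal kept the median r between 0.444 (without wildtype 2) and 0.776 (without transgenic 1).

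In the other 10 animals the correlations had both signs. There 12 of 21 pairs had a positive r, with a median of 0.117 and a range of -0.756 (Stard4 with Srebf2) to 0.788 (Fdps with Nsdhl). Over pairs of named genes in these animals 50.1% had a positive r, with a median of 0.00152. The median was -0.233 without transgenic 4, the highest of the 10 for Fdps, Cyp51, Nsdhl and Insig1. Stard4 with Insig1 had r = 0.732 and rho 0.879 (permutation p = 0.00135 for rho, adjusted p = 0.0567), and r stayed at 0.759 without the 2 farthest animals. Fdps with Nsdhl had r = 0.358 without them. The difference between the sets was not tested.

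Different probes of a gene varied together in the 6 animals. The 3 Nsdhl probes correlated at 0.959 to 0.985 there, against 0.152 to 0.748 in the other 10, where 2 of them were near noise. The 2 tested Insig1 probes correlated at 0.889 in the 6 and 0.923 in the 10.

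Genes most like the 7 were ranked by correlation over 16 animals with the mean of their standardised log2 levels, as a description of the 2 clusters and with no p. Of the 8 first, 4 belong to the pathway: Lss (r = 0.961), Erg28 (0.953), Tmem97 (0.951) and Acat2 (0.950). The others were Paox, a polyamine oxidase (0.972), Qdpr, which regenerates tetrahydrobiopterin (0.964), Susd4, a sushi domain protein (0.955), and Lrtm1, a leucine-rich repeat membrane protein (0.951). Paox kept r = 0.934 within the 6 animals and had 0.277 within the 10, and Lss had 0.783 and 0.579. In the same order of sets, Lrtm1 had 0.874 and 0.226, and Qdpr 0.871 and 0.105. For the fatty acid synthesis genes, lower in the ranking, r within the sets is given with no test and no share over all genes. Fasn had 0.959 and 0.464, Acly 0.873 and 0.574, Acaca 0.787 and 0.639, and Elovl6 0.664 and 0.577. Over the 16 animals, however, Acaca had -0.571. The others had a lower r in the 10: Acss2 had 0.709 and 0.0883, Gpam 0.315 and 0.177, Scd2 0.240 and 0.408, and Fads2 0.0367 and 0.0125. Susd4 had 0.0724 within the 6, with intensities of 278.1 to 419.3 there and of -31.2 to -14.8, at background, in the other 10. It was above noise on 6 arrays and so passed the filter through the 6 animals alone. At the other end of the ranking stood Lpl, the lipoprotein lipase (-0.960), Atp6v1e1, a subunit of the vacuolar proton pump (-0.934), Rundc3b, a RUN domain protein (-0.931), and Mif, a cytokine (-0.926). Each gene compared with the mean of the other 6 gave an r of 0.985 for Nsdhl, 0.980 for Fdps, 0.972 for Cyp51, 0.921 for Insig1, 0.914 for Stard4, 0.833 for Hmgcs1 and 0.665 for Srebf2.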

How the data were processed

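Liver RNA of 16 mice was labelled with biotin as cRNA and hybridised to Illumina bead arrays, per the labels' protocols. The deposited values are intensities on a linear scale for 24048 probes, made by the authors with BeadStudio 1.5.1.3, per the submitters' processing notes. The sources used here do not give how BeadStudio scaled them. Another 128 per-sample columns carry chip positions that no label ties to an animal and were not used. Here each array was corrected with the normexp model (saddle-point fit) with an offset of 16, and log2 values were quantile normalized with limma 3.58.1 under R 4.3.3. Detection meant an intensity over 1.645 times the array's noise SD, estimated by the root mean square of the values below 0. Quantile normalization hides a shift shared by most genes, and the offset compresses folds of dim probes.

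Probes were named by matching the padded gene number in the identifier to RefSeq (93.3% of 9523 numbers matched), and a gene was read by its brightest probe on average. The genotype test was lmFit and eBayes, two-sided, with Benjamini-Hochberg adjustment over 11317 probes at a threshold of 0.05. Correlations used Python 3.11.15 and scipy 1.17.1, with exact enumeration for 6 animals and 100000 resamples for 10. The genotype fit was tested on simulated data, with folds of 1.5, 2 and 3 added to 200 random probes in 20 draws. It recovered 80.5%, 95.4% and 98.8% of them, with a median of 1 and a maximum of 51 false calls. The probes were drawn from all tested ones, so these shares do not hold for the 7 genes, most of which varied far more between animals. The genes, the lists and the rule for named genes were chosen with earlier results of these data known. That rule took every probe of the 7 genes, the 3 listed genes of smallest p in each pathway list, and the 8 genes most and 4 least like the 7. List members outside it were named after their values were seen, and some listed genes are counted but not reported here by name. Within the 3 title numbers shared by both genotypes, deviations from the genotype means correlated at -0.134, -0.555 and -0.398 between genotypes. Each of these numbers sets 1 of the 6 high animals against animals of the other 10. The values therefore cannot decide whether the number pairs animals. The correlation within title number that the random block estimated was 0.168. Precision depends on the number of arrays and on the spread between animals, as the SEs give it.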

Additional observations from a re-analysis of the deposited data

How the results depend on the processing

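Under every alternative run, which covered background correction, offset, normalization, title number as a block, array weights, variance model, probe filter, the probe read for a gene and each animal left out, limma called 0 probes and 0 of the 7 genes. The count at an unadjusted p under 0.05 was 332, and it was 153 with scaling to a common median, 1509 with title number as a fixed block, 1197 with array weights, 875 with no filter and 221 to 799 without single animals. The adjusted p of the 7 genes lay between 0.353 (Stard4) and 1.0 over their alternatives.

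With title number as a fixed replicate block, which compares genotypes within the 3 shared numbers, all 7 log2 differences were below 0: Fdps -0.74, Cyp51 -0.70, Nsdhl -0.82, Stard4 -1.25, Hmgcs1 -0.48, Insig1 -0.80 and Srebf2 -0.0157. The random block gave -0.0740 for Fdps. The median of the other cholesterol genes was -0.25 with the fixed block and 0.19 with the covariate named next. Array weights gave -0.23 for Fdps. With the coordinate on the first principal component as a covariate, an alternative chosen after seeing the data, the 7 differences were above 0: 0.64 for Fdps, 0.31 for Cyp51, 0.41 for Nsdhl, 0.0331 for Stard4, 0.00842 for Hmgcs1, 0.15 for Insig1 and 0.15 for Srebf2. Single animals left out gave -0.29 to 0.23 for Fdps and -0.51 to 0.0418 for Nsdhl. The cause of these changes of sign was not tested, and the block changed no call.

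The median r of pairs in the 6 animals was 0.744 on deviations from genotype means and 0.444 to 0.776 without single animals. In the other 10 it was 0.414 with scaling to a common median and -0.233 to 0.154 without single animals. Correlation within a genotype or title number was not run, because the animals form 2 clusters and each cluster holds fewer than 6 of any genotype or number. Low signal limits Srebf2 and the dimmer Nsdhl probes.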
